A study of Mus musculus with 18 samples.

Results

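The genes described here are 45 protein-coding genes of DNA replication and mitosis, taken by symbol from the deposited expression tables of 3 mouse stem cell types, and all 45 were present and tested in each table. They make up 26 replication genes and 19 mitosis genes out of 14804 genes listed in at least 1 of the tables. The study grew wild-type E14 embryonic stem cells (ESCs, from the epiblast lineage), trophoblast stem cells (TSCs, from the placental lineage) and extra-embryonic endoderm cells (XEN cells, from the primitive endoderm lineage) at 20% O2 (normoxia) or at 2% O2 (hypoxia) for 2 or 7 days. Each of the 9 groups had 2 biological replicates measured by bulk RNA sequencing, so that every cell type had 6 libraries. By their labels, groups of the same cell type differed only in oxygen and days. The normoxic group carries no day, and no normoxic group is labelled as matched to day 2 or day 7. Time in culture therefore cannot be told apart from time in hypoxia. ESCs were kept without feeders on gelatin in serum and LIF, TSCs on feeder cells, and XEN cells on gelatin. Each cell type stands for 1 line in culture.

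Replication begins when the origin recognition complex, with Cdc6 and Cdt1, loads the ring of Mcm proteins onto DNA. The ring becomes an active helicase when Cdc45 and the GINS complex join it, and Pcna, a sliding clamp placed by replication factor C (the Rfc subunits), holds the polymerases on the template. Mitosis is then driven by Cdk1 with its B cyclins and by the Plk1 and Aurora kinases, held in check by Bub1, Bub1b and Ttk until all chromosomes are attached, and released by Cdc20. Transcripts of both groups are periodic in dividing cells and fall when cells leave the cycle, which is why the genes serve as readouts of proliferation.

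Depth was high for these genes. Whole reads recovered from the deposited TPM values (transcript values scaled to a fixed total per library) came to between 35592641 and 75204029 per library, and the genes held from 331 to 63443 reads each in a library. The cell type labels were checked against defining markers. The 7 ESC markers summed to between 7160 and 7532 TPM in ESC libraries, and the 7 XEN markers to between 2857 and 3408 in XEN libraries. The 7 TSC markers summed to 1313 and 1346 in normoxic TSCs. All 7 markers of the matching list were present in each table, but presence alone does not separate the types, since the ESC table also held all 7 XEN markers. In the other cell types the XEN markers summed to between 10.7 and 17.1 (ESCs) and 22.6 and 52.3 (TSCs). The TSC markers in the tables summed to between 491 and 601 (ESCs) and 110 and 174 (XEN cells). Most of this in ESCs was *Esrrb*, also on the ESC list, with 354 to 401. Nearly all of it in XEN cells was *Tead4*, with 109 to 174. The ESC markers summed to between 1.51 and 8.25 in XEN cells but to between 562 and 1866 in TSCs.

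Levels can be compared between genes only per length of transcript, so they are given first as TPM recomputed with exon length, whereas later TPM values of the 45 genes are on the deposited scale, which divides by the whole gene span and holds only within a gene. In normoxia the 45 genes ranged from 25.3 to 881 exon-length TPM in ESCs with a median of 157, from 8.55 to 701 in TSCs with a median of 81.6, and from 20.5 to 640 in XEN cells with a median of 117. The median gene of each table lay at 17.4, 21.9 and 26.7, and 45, 41 and 43 of the 45 genes were above it. In ESCs the highest was *Cdc20*, the activator of the anaphase-promoting complex, with 919 and 844 in the replicates. In TSCs and XEN cells the highest was *Rrm2*, the regulated subunit of ribonucleotide reductase, with 792 and 610 and with 648 and 633. The GINS subunit *Gins3* was last in ESCs (26.4 and 24.2) and in XEN cells (17.1 and 23.96). *Pola1*, the catalytic subunit of DNA polymerase alpha, was last in TSCs (9.15 and 7.94). The tables were normalised separately, so these levels stand side by side without a test between cell types.

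The largest movement of these genes was in TSCs. Relative to the mean of normoxia on the log2(TPM + 0.5) scale, the median of the 19 mitosis genes was 0.74 and 0.43 in the TSC libraries of day 2 and -0.65 and -0.83 in those of day 7. The median of the 26 replication genes was 0.19 and 0.32 on day 2 and -0.34 and -0.53 on day 7. Over all 12481 genes tested in TSCs the library medians were 0.07 and 0.07 on day 2 and -0.08 and -0.29 on day 7. Among the ESC and XEN libraries the median farthest from normoxia was 0.23, that of the mitosis genes in an XEN library of day 7. The TSC libraries therefore stood high on day 2 and low on day 7 for both groups of genes, with the mitosis genes farther from normoxia than the replication genes in all 4 hypoxic libraries.

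**Figure D1:**
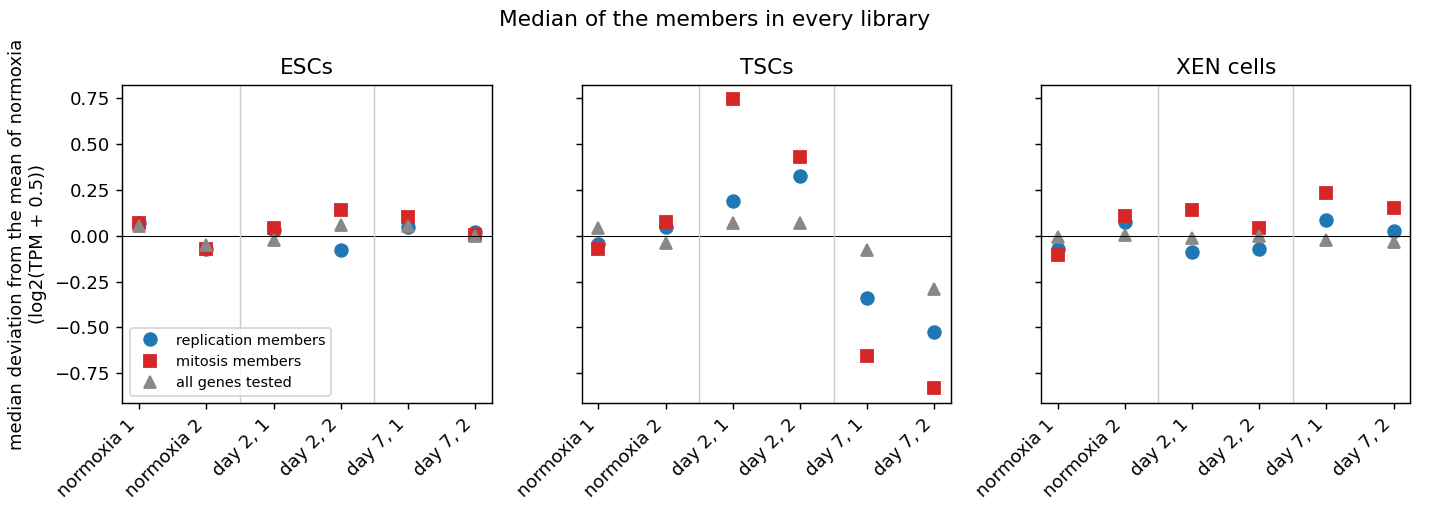
Median deviation of the 26 replication genes (circles), the 19 mitosis genes (squares) and all genes tested (triangles) from the mean of normoxia, on the log2(TPM + 0.5) scale, in each of the 6 libraries of ESCs, TSCs and XEN cells. In TSCs the mitosis genes sit at 0.74 and 0.43 on day 2 and at -0.65 and -0.83 on day 7, and in the ESC and XEN libraries the median farthest from normoxia is 0.23, that of the mitosis genes in an XEN library of day 7.

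After 2 days of hypoxia TSCs had higher values for nearly all of the genes, but none passed the test, which called a gene at an adjusted p of at most 0.1 with a change over 1.5-fold (limma with Benjamini-Hochberg adjustment over all genes). Of the 45 genes, 44 were higher than in normoxia by some amount (56.9% of all genes) and 35 had both day 2 libraries above both normoxic libraries, where 30.6% of all genes tested did so. Past 1.5-fold were 14 genes, 10 of them mitosis genes, against 12.6% of all genes. By limma 0 of 45 were called (0.192% of all genes were called higher), 17 had an unadjusted p under 0.05 (13.1% of all genes), and limma-voom on the recovered reads called 0 as well. The study's edgeR test at the same thresholds reported more changed genes than limma called here, in each cell type on both days. A gene not called here may be among those of the study. The median log2 difference was 0.19 for the replication genes and 0.60 for the mitosis genes, against 0.07 for all genes.

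The largest difference was that of *Cenpa*, which encodes the histone H3 variant of centromeric nucleosomes (chr5:30666777-30674830 in GRCm38). It had 102 and 94.4 TPM in normoxia and 229 and 193 on day 2, a log2 difference of 1.10 (SE 0.18) with an adjusted p of 0.116. *Bub1*, a kinase of the spindle checkpoint (chr2:127801122-127831865), had 35.7 and 37.0 TPM in normoxia and 79.8 and 73.0 on day 2, a log2 difference of 1.06 (SE 0.19, limma adjusted p 0.126). Both genes had about 2 times the normoxic level in each day 2 library, without overlap, and missed the threshold of the adjusted p. *Aurkb*, the kinase of the chromosomal passenger complex, had 164 and 186 TPM in normoxia and 417 and 292 on day 2 (log2 difference 0.998, SE 0.22, limma adjusted p 0.187). Among the replication genes *Pold1*, the catalytic subunit of DNA polymerase delta, had 43.5 and 44.1 TPM in normoxia and 94.7 and 67.9 on day 2 (log2 difference 0.86, SE 0.22, limma adjusted p 0.224). The licensing factor *Cdt1* (206 and 257 against 422 and 332) and the helicase subunit *Mcm7* (253 and 270 against 441 and 385) also had no overlap between the groups, with log2 differences of 0.70 and 0.66. *Mki67*, the Ki-67 antigen that coats mitotic chromosomes, had 112 and 155 TPM in normoxia and 230 and 189 on day 2, a log2 difference of 0.66 with an adjusted p of 0.299. At the other end *Pcna* and *Mcm2* had log2 differences of 0.02 and 0.19, and *Rrm2* was the only member below normoxia, with 1183 and 890 TPM against 706 and 907 (log2 difference -0.36). With scaling by the median ratio of the libraries 4 genes had differences below 0 (*Mcm10*, *Pcna*, *Rrm1* and *Rrm2*).

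After 7 days the values in TSCs lay on the other side of normoxia. Of the 45 genes 43 were lower than in normoxia (8982 of all 12481) and 40 had both day 7 libraries below both normoxic libraries, where 32.3% of all genes did so. The count past 1.5-fold was 22, of which 15 were mitosis genes, against 12.7% of all genes. Here too limma called 0 of 45 (0.345% of all genes were called lower), with 27 at an unadjusted p under 0.05 (10.4% of all genes) and 0 called by limma-voom. The median log2 difference was -0.42 for the replication genes and -0.76 for the mitosis genes. All genes together had a median of -0.18, which leaves -0.24 and -0.58 relative to it. This comparison and that of day 2 used the same normoxic libraries.

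*Mcm10*, which helps to start the helicase, had 43.5 and 45.5 TPM in normoxia and 24.8 and 18.8 on day 7, a log2 difference of -1.02 (SE 0.23, limma adjusted p 0.194). *Kif23*, a kinesin of the central spindle, had 45.9 and 42.5 TPM in normoxia and 24.4 and 19.3 on day 7 (log2 difference -1.01, SE 0.20, adjusted p 0.166). *Bub1b*, which encodes the checkpoint protein BubR1, had 28.7 and 31.4 TPM in normoxia and 18.01 and 12.2 on day 7 (log2 difference -0.995, SE 0.26, limma adjusted p 0.265). All of these had day 7 libraries well below the normoxic libraries, and none reached the threshold. *Mki67* had a log2 difference of -0.97, *Gins1* of -0.85, *Plk1* of -0.82, *Rrm2* of -0.78, *Pole* of -0.69 and *Rrm1* of -0.67. The exceptions were *Gins2* (0.11) and the clamp loader subunit *Rfc3* (0.03), whose values overlapped those of normoxia. With median-ratio scaling 6 of 45 had differences above 0, *Cdt1*, *Gins4*, *Rfc2* and *Birc5* being the others.

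**Figure D2:**
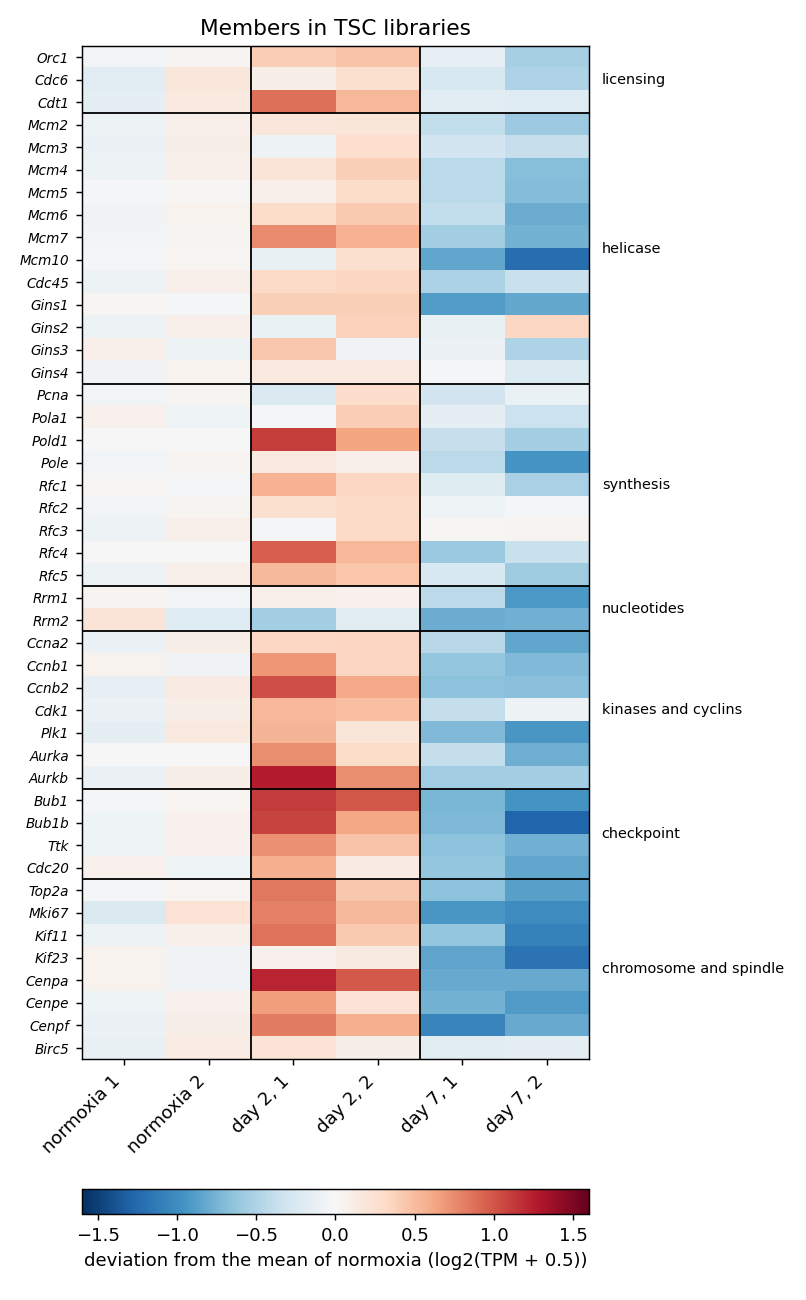
Deviation of each of the 45 genes from its mean in normoxia, on the log2(TPM + 0.5) scale, in the 6 TSC libraries, with genes in rows grouped by role and libraries in columns. Most rows are red in both day 2 libraries and blue in both day 7 libraries, most deeply among the checkpoint and the chromosome and spindle genes, while Gins2, Pcna, Rfc2 and Rfc3 stay pale.

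Between day 2 and day 7 of hypoxia TSCs lost transcripts of most of these genes. Of 45 genes 34 fell (limma, adjusted p at most 0.1 and over 1.5-fold) and 0 rose, where 13.8% of all genes tested fell and 2.37% rose. The genes that fell were 16 of the 26 replication genes and 18 of the 19 mitosis genes. All 45 were lower on day 7 by some amount (68.8% of all genes), *Gins2* and *Rfc3* by less than their standard errors, and 42 had no overlap between the groups, as had 44.9% of all genes in that direction. The median log2 difference was -0.75 for the replication genes and -1.31 for the mitosis genes. The median of all genes was -0.24, so that the medians relative to it were -0.51 and -1.07. Fewer dividing cells and less transcript in each cell cannot be told apart in these bulk libraries. From cell counts the study reported that hypoxia left TSC and XEN proliferation largely unaffected and slowed that of ESCs. For ESCs it also reported an unaltered distribution of cells over the cell cycle. How those results relate to these transcripts was not tested.

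All 4 spindle checkpoint genes fell, and *Bub1* had the largest decrease of the 45. *Bub1* went from 79.8 and 73.0 TPM on day 2 to 21.7 and 18.4 on day 7, a 3.75-fold decrease (log2 difference -1.91, SE 0.19, limma adjusted p 0.011). *Bub1b* went from 64.1 and 46.3 to 18.01 and 12.2 TPM, a 3.59-fold decrease (log2 difference -1.84, SE 0.26, adjusted p 0.0181). In both the lowest library of day 2 was more than 2 times as high as the highest of day 7. *Ttk*, the kinase that recruits the other checkpoint proteins, fell by 1.31 on the log2 scale, and *Cdc20*, their target, fell by 1.07.

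Of the genes of chromosomes and spindle 7 of 8 fell. *Cenpa* went from 229 and 193 TPM to 55.9 and 55.9, a 3.74-fold decrease (log2 difference -1.90, SE 0.18, limma adjusted p 0.00896). *Mki67* went from 230 and 189 to 68.9 and 65.0 TPM, and *Cenpf*, an outer kinetochore protein, from 47.7 and 40.0 to 12.7 and 15.1. The decreases were 3.10-fold and 3.08-fold (limma adjusted p 0.0168 and 0.0165), again with a wide gap between the groups. The motor *Kif11*, which separates the spindle poles, fell by 1.49 on the log2 scale and topoisomerase *Top2a*, which untangles sister chromatids, by 1.40. The survivin gene *Birc5* was the exception, with 268 and 245 TPM on day 2 and 203 and 206 on day 7 (log2 difference -0.33, SE 0.17, limma adjusted p 0.270).

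All 7 kinases and cyclins fell. *Aurkb* went from 417 and 292 TPM to 119 and 119, a 2.92-fold decrease (log2 difference -1.55, SE 0.22, limma adjusted p 0.0181), and *Ccnb2*, a B cyclin, from 134 and 99.5 to 41.4 and 40.8, a 2.79-fold decrease. Their day 7 replicates lay close together, and the spread was among the day 2 libraries. *Ccnb1*, the main mitotic cyclin, fell 2.27-fold, from 358 and 281 to 144 and 136 TPM. The smallest decrease of the group was that of *Cdk1*, their catalytic partner, from 141 and 136 to 74.4 and 91.9 TPM (1.67-fold, limma adjusted p 0.0597).

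**Figure D3:**
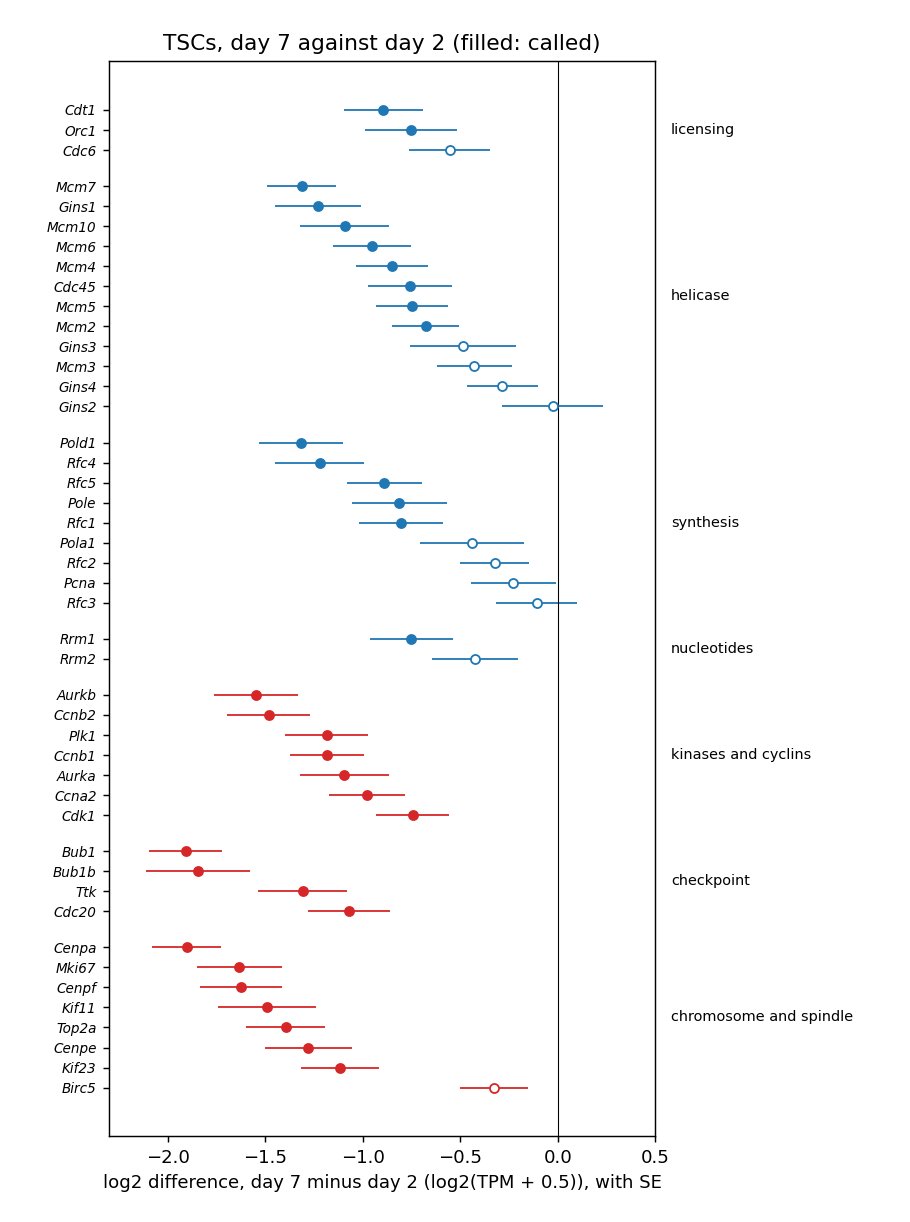
Log2 difference of each of the 45 genes between day 7 and day 2 of hypoxia in TSCs, with its standard error from the limma fit, grouped by role. Filled symbols are the 34 genes called and open symbols the 11 not called, of which only Birc5 is a mitosis gene, and the largest differences are those of Bub1 at -1.91 and Cenpa at -1.90.

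Among the replication genes 16 of 26 fell, with members called and not called in every role. Of the 12 helicase genes 8 fell, led by *Mcm7* (441 and 385 TPM on day 2, 178 and 154 on day 7, a 2.48-fold decrease, limma adjusted p 0.0177), with *Gins1*, *Mcm10*, *Mcm6*, *Mcm4*, *Cdc45*, *Mcm5* and *Mcm2*. *Mcm3* and the remaining GINS subunits were not called, although GINS is a complex of 4 different subunits. *Gins1* went from 10.7 and 10.7 TPM to 4.15 and 4.39 (limma adjusted p 0.0285), whereas *Gins2* had 16.8 and 23.4 on day 2 and 16.7 and 22.8 on day 7 (adjusted p 0.962). Of the 9 synthesis genes 5 fell, led by *Pold1* (94.7 and 67.9 to 33.9 and 30.04 TPM, 2.49-fold) and *Rfc4* (41.2 and 30.5 to 13.7 and 16.3 TPM, 2.33-fold). *Pcna* did not pass, with 245 and 350.5 TPM on day 2 and 233 and 269 on day 7, a log2 difference of -0.23 (SE 0.22, limma adjusted p 0.538) that turned to 0.06 with median-ratio scaling. The clamp loader was divided in the same way, since *Rfc1*, *Rfc4* and *Rfc5* fell while *Rfc2* (-0.32) and *Rfc3* (-0.11) were not called. Of the licensing genes *Cdt1* and *Orc1* fell and *Cdc6* was not called (-0.55, SE 0.21, limma adjusted p 0.141). Of the ribonucleotide reductase genes *Rrm1* fell and *Rrm2* was not called (-0.42). A difference in response between subunits was not tested.

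The number called in this comparison depended on single libraries and on the scaling. Without day 7 replicate 2 limma called 0 of 45, and 0 of all genes, although 32 kept an unadjusted p under 0.05 and all 45 stayed lower; without day 7 replicate 1 it called 11, without day 2 replicate 1 only *Cenpa*, and without day 2 replicate 2 it called 23. Median-ratio scaling, under which the median of all genes was 0.02, called 24 of the 45 lower, 7 replication and 17 mitosis genes, with 7.76% of all genes called lower. Over all genes the calls divided into 296 higher and 1723 lower in the deposited scale and into 738 and 968 with median-ratio scaling. Under that scaling the differences of *Gins2*, *Pcna* and *Rfc3* were above 0 but smaller than their standard errors.

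Genes of the same processes that are not among the 45 were counted in the same fit. Over all genes 13.8% fell and 2.37% rose in TSCs between day 2 and day 7. Of 46 other replication genes 12 fell and 0 rose, with a median log2 difference of -0.54. The largest decreases were those of *Dtl* (-1.42), a subunit of the ligase that degrades Cdt1, and *Lig1* (-1.23), the ligase that seals Okazaki fragments. Of 69 other mitosis genes 52 fell and 0 rose, with a median of -0.95, led by the spindle proteins *Nusap1* (-1.94) and *Aspm* (-1.90). Of 22 tested regulators of such genes 9 fell and 1 rose. *Mybl2*, the B-Myb factor that acts with the MuvB complex, was the largest decrease (-1.64, limma adjusted p 0.028), and the repressor *E2f8* was the gene that rose (0.88, limma adjusted p 0.095). The lists were drawn up by hand and overlap in function with the 45 genes.

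Markers of cell types and of the hypoxia response were read in the same TSC libraries, on the exon-length TPM scale, and are given beside the shares over all genes of 13.8% called lower and 2.37% called higher between day 2 and day 7. The 7 TSC markers summed to 1313 and 1346 without hypoxia, then to 1348 and 1515 after 2 days and 823 and 739 after 7 days, and 6 of the 7 were called lower between the days. *Cdx2*, *Eomes* and *Elf5*, transcription factors that define the trophoblast stem state, were among those that fell, and *Tfap2c* had a log2 difference of 0.27. *Cdx2* had 125 and 115 TPM in normoxia and 37.0 and 34.0 on day 7, a log2 difference of -1.80. By immunofluorescence the study reported that TSCs stayed undifferentiated in prolonged hypoxia, with more CDX2 protein than in normoxia. How that staining relates to these transcripts was not tested. Of the 7 ESC markers *Pou5f1*, which defines the pluripotent state, and *Tdgf1* were not in the table. The other 5 summed to 1172 and 1613 without hypoxia, then to 1866 and 1733 after 2 days and 562 and 579 after 7 days, and 5 of 5 were called lower between the days. They were *Sox2* (-2.85), *Nanog* (-1.96), *Esrrb* (-1.91, also among the TSC markers), *Utf1* (-1.53) and *Zfp42* (-1.16). *Nanog* was low throughout, with 4.68 and 2.39 TPM on day 2 and 0.52 and 0.51 on day 7. Of the 7 XEN markers 6 were in the table, with sums between 22.6 and 52.3, and *Gata4* (-1.597) was called lower and *Pdgfra* (1.55) higher.

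Of 10 markers of differentiated trophoblast 7 were in the table (*Prl3b1*, *Synb* and *Tpbpa* were not), and 4 were called between the days, *Prl3d1* (2.15) and *Plac1* (2.46) higher on day 7 and *Gcm1* (-1.38) and *Ascl2* (-1.16) lower. On day 2 *Prl3d1* (1.08 and 1.82 TPM), *Gcm1* (3.78 and 1.62) and *Ascl2* (7.73 and 5.11) were at low levels. The sum of the 7 is nearly that of *Hand1* alone, which had 5600 and 9411 TPM without hypoxia, 5551 and 4724 after 2 days and 9774 and 8969 after 7 days and was not called (log2 difference 0.81). The list of 10 hypoxia response genes summed to 2968 and 3273 in normoxia, to 7243 and 7563 after 2 days and to 4046 and 4977 after 7 days, and 7 were called lower between the days. The 10 fibroblast markers, which would show feeder cells, summed to 1505 and 212 (normoxia), 161 and 796 (day 2) and 357 and 224 (day 7), with 6 of the 10 higher and 4 lower on day 7 than on day 2. Normoxia replicate 1 and day 2 replicate 2 were thus the libraries richest in these transcripts. Normoxia replicate 1 does not enter the differences between day 7 and day 2, so leaving it out cannot show a part of feeder cells in them. The part of these lists in the values of the 45 genes was not tested.

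In ESCs the same genes stayed close to normoxia. Limma called 0 of 45 on day 2 (0.0% of all genes called) and on day 7 (0.758% called), with 2 at an unadjusted p under 0.05 on each day (5.05% and 8.04% of all genes) and 0 called by limma-voom. The median log2 difference of the replication genes was -0.01 on day 2 and 0.02 on day 7, and that of the mitosis genes 0.04 and 0.06. Both day 2 libraries lay above normoxia for 6 genes and below for 3 (16.4% and 14.4% of all genes), and on day 7 for 8 and 4 (23.0% and 17.5%). Between the days limma called 0 of 45 (0.179% of all genes called) with 0 at an unadjusted p under 0.05 (4.26%).

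The largest group difference from normoxia in ESCs was that of *Kif23*, with 79.2 and 68.6 TPM in normoxia, 88.2 and 106 after 2 days and 98.8 and 102 after 7 days. Its log2 differences were 0.39 (SE 0.14, limma adjusted p 0.933) and 0.44 (SE 0.14, limma adjusted p 0.399). *Plk1* had 284 and 232 TPM in normoxia, 303 and 364 after 2 days and 318 and 325 after 7 days, and *Aurka* 133 and 113, 145 and 149, and 157 and 151. In these 3 genes every hypoxic library was above both normoxic libraries, and none was called. *Pcna* (965 and 927, 946 and 797, 879 and 912 TPM), *Mcm2* and *Cdk1* differed from normoxia by up to 0.12 on the log2 scale. The ESC replicates of day 2 disagreed for a few genes, with *Mki67* at 97.1 and 211 TPM and *Cenpf* at 36.1 and 72.02, where normoxia had 144 and 140 and 50.2 and 47.3.

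In XEN cells limma also called 0 of 45 in each comparison, where 0.0% of all genes were called on day 2, 0.11% on day 7 and 0.0367% between the days. The counts at an unadjusted p under 0.05 were 0, 0 and 2 (7.77%, 9.01% and 11.9% of all genes), and limma-voom called 0 in each. On day 2 the median log2 difference was -0.07 for the replication genes and 0.11 for the mitosis genes, and on day 7 it was 0.02 and 0.21. Without normoxia replicate 1 the mitosis medians became -0.04 on day 2 and 0.05 on day 7, and without normoxia replicate 2 they became 0.21 and 0.33. On day 7 both libraries lay above normoxia for 16 genes and below for 5, against 17.5% and 23.9% of all genes, and 10 of the 16 were mitosis genes. Between the days 21 genes lay higher on day 7 without overlap and 2 lower, against 21.7% and 25.9% of all genes.

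*Gins2* and *Cdk1* were the genes past 1.5-fold between the days in XEN cells, 2 of 45 against 7.66% of all genes. *Gins2* had 43.8 and 51.1 TPM in normoxia, 37.0 and 42.8 after 2 days and 71.3 and 55.5 after 7 days, a log2 difference of 0.65 between the days (SE 0.19, limma adjusted p 0.373). *Cdk1* had 99.5 and 111 TPM in normoxia, 81.1 and 101 after 2 days and 159 and 116 after 7 days (log2 difference 0.59 between the days, SE 0.20, limma adjusted p 0.393). For both, day 7 was the highest group without overlap and its replicates were far apart. *Cenpa* had 130 and 150, 100 and 151, and 197 and 156 TPM, and *Mki67* 186 and 263, 259 and 235, and 264 and 308. *Pcna*, with 434 and 435 TPM in normoxia, had 383 and 405 on day 2 and 471 and 443 on day 7.

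**Figure D4:**
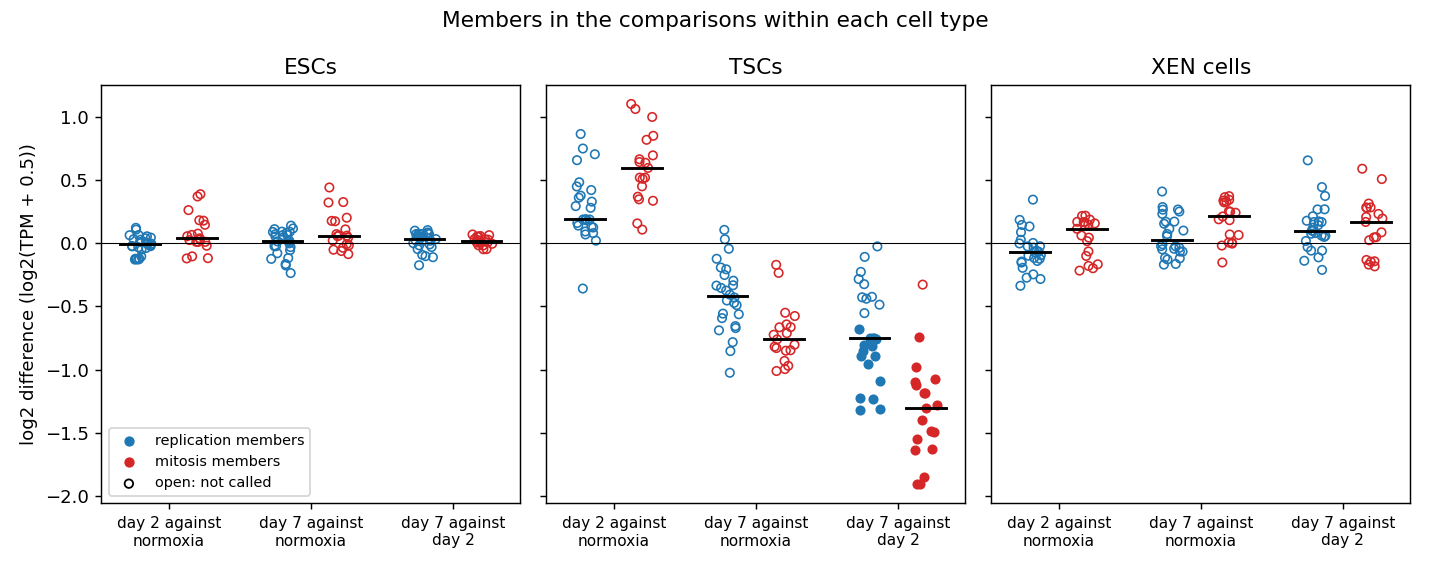
Log2 difference of each gene (log2(TPM + 0.5) scale) in the comparisons within each cell type, replication genes to the left in blue and mitosis genes to the right in red, with a bar at the median of each group. Filled symbols, the genes called, occur in only 1 of the 9 comparisons, TSCs on day 7 against day 2, with 16 replication and 18 mitosis genes.

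The promoters of the genes were searched for the letters of 3 elements known from cell cycle genes: the E2F site (with the letters TTCCCGC or in other forms TTGGCGC or else TTCGCGC or also TTGCCGC), the CCAAT box of NF-Y, and the cell cycle homology region or CHR (TTTGAA or TTCGAA), which the MuvB complex binds. Both strands were read. RefSeq promoter windows in GRCm38.p6 were at hand for 37 of the 45 genes, 20 replication genes with 21 windows and 17 mitosis genes with 17 windows. In the 250 bases before the start an E2F match stood in 11 of 21 replication windows (52.4%) and in 3 of 17 mitosis windows (17.6%), against 7.89% of all 32851 windows. A CCAAT match stood in 76.2% of replication, 94.1% of mitosis and 33.8% of all windows. A CHR match stood in 5 of 21 replication windows (23.8%), in 7 of 17 mitosis windows (41.2%) and in 17.1% of all windows. Including the 50 bases after the start, a window added after the first counts were seen, the CHR letters stood in 14 of 17 mitosis windows (82.4%), in 5 of 21 replication windows (23.8%) and in 19.2% of all. The E2F letters then stood in 76.2% of replication and 17.6% of mitosis windows. In 1 window, that of *Ccnb1*, an E2F and a CCAAT match overlapped before the start.

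**Figure D5:**
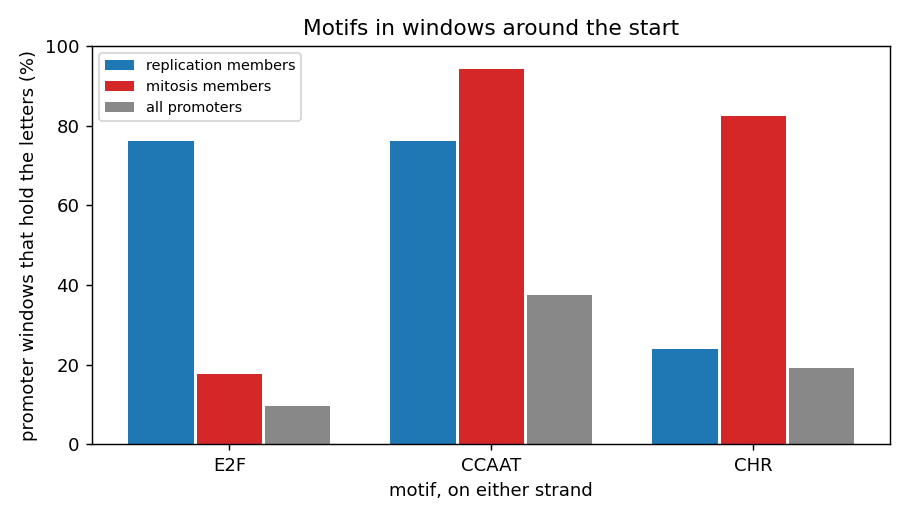
Share of promoter windows (250 bases before to 50 after the RefSeq start) that hold the letters of each element on either strand, for 21 windows of replication genes, 17 of mitosis genes and all 32851 windows. CHR letters stand in 82.4% of the mitosis windows and 19.2% of all, and E2F letters in 76.2% of the replication windows and 9.57% of all.

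The stretches shown are the 150 bases before the start for the 3 mitosis and 2 replication genes with the largest decrease in TSCs that had a window and at most 30 of these bases in an annotated exon. They are written along the transcribed strand from GRCm38.p6, and capitals mark a match to any of the 3 elements on either strand. *Bub1* (chr2:127831860-127832009, minus strand) has 2 CCAAT matches, *Bub1b* (chr2:118598061-118598210, plus strand) 1, and *Mki67* (chr7:135716380-135716529, minus strand) 1, with 2 CHR matches and 1 E2F match. *Mcm7* (chr5:138171267-138171416, minus strand, the downstream of its starts) has 1 E2F and 1 CCAAT match. *Rfc4* (chr16:23127731-23127880, minus strand) has none of the letters here.
Bub1: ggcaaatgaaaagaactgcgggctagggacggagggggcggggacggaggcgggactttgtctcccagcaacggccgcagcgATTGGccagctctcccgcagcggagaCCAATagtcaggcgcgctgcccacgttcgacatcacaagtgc
Bub1b: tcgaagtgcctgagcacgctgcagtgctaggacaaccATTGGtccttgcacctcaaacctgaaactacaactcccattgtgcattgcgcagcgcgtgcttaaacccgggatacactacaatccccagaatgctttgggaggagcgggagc
Mki67: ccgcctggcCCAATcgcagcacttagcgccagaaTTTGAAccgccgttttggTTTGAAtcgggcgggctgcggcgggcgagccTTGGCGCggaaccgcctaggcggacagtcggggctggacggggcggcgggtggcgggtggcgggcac
Mcm7: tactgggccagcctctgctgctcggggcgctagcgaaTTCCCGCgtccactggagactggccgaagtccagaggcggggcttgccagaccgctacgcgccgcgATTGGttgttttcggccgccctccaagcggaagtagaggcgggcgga
Rfc4: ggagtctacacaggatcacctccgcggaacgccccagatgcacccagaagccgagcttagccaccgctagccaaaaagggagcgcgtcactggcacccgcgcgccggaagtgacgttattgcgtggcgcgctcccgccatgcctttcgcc

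*Bub1* has its CHR match just after the start, and so lies 1 of the 2 matches of *Bub1b*, whose other is upstream of the stretch above. The matches after the start are shown in 24-base stretches at chr2:127831831-127831854 for *Bub1* (minus strand) and chr2:118598237-118598260 for *Bub1b* (plus strand). Capitals mark the CHR match, which begins 15 bases into the transcript in *Bub1* and 41 in *Bub1b*.
Bub1: cgcggggaaTTCGAAtcgccggcg
Bub1b: caagagacgttaaaTTTGAAactt

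The letters describe the sequence only, and no binding was measured here.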

How the data were processed

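RNA of 18 libraries (3 cell types, normoxia and 2 or 7 days of hypoxia, 2 biological replicates each) was sequenced paired-end. According to the study's methods and the submitters' processing notes, the authors trimmed reads with cutadapt 2.4, aligned them with STAR 2.7.5a to mm10, used StringTie 2.0.6 and featureCounts, and filtered on 0.4 CPM in at least 2 of 6 libraries of a cell type, keeping protein-coding genes. The deposited values are TPM, scaled by the authors per cell type so that each library sums to 1000000. Dividing by gene span (end minus start, GENCODE vM21) gave whole reads (within 0.05) for 98.7 to 98.9% of values, against about 10% with exon length, so the deposited TPM use the gene span; reads recovered in this way gave depth and exon-length TPM.

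The main test was limma 3.58.1 (R 4.3.3) with a mean-variance trend on log2(TPM + 0.5), for genes over 0.4 TPM in at least 2 of 6 libraries, all 6 libraries of a cell type in 1 fit, Benjamini-Hochberg adjusted over all genes; 2 against 2 libraries cannot give an exact permutation p below 0.333. The fit was tested on simulated data with known changes in 200 genes. At a dispersion (spread between replicates) of 0.05 it found 21%, 26% and 31% of 2-fold changes in simulated ESC, TSC and XEN data. At a dispersion of 0.01 it found 95.5%, 93% and 95%. A gene that was not called is thus not shown to be unchanged. False calls for 2-fold changes were 3, 6 and 6 at a dispersion of 0.05 and 8, 15 and 9 at 0.01. For 4-fold changes at 0.05 they were 43, 27 and 32, with 99%, 99.5% and 98% of the 200 changed genes found. Some called genes can therefore be false. The text names genes called (the 10 largest where more than 15), the 2 largest differences of each role in a comparison, *Pcna*, *Mcm2*, *Ccnb1*, *Cdk1* and *Mki67*, and at most 2 per direction of other lists. Alternatives were other pseudocounts, filters, scalings, limma-voom, no trend, a replicate block, 4 libraries only and leaving out each library. The genes, lists and tests were chosen with earlier results of these data known. Exons of 8 of the 45 genes overlap another protein-coding gene (*Mcm7*, *Cdc45*, *Gins2*, *Rfc2*, *Rfc4*, *Rfc5*, *Ccna2*, *Cdc20*) and *Pcna*, *Ccnb1* and *Ccnb2* have named pseudogenes; how such reads were counted is not given in the sources used here.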

Additional observations from a re-analysis of the deposited data

Results flagged for a closer look

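Several library medians lay on opposite sides of the mean of normoxia in every library of the groups compared, and none of these differences was tested. For the replication genes on day 7, ESC libraries (0.05 and 0.02) lay above the normoxic mean and TSC libraries below. The difference was 0.46 on the log2 scale, and TSCs minus XEN cells gave -0.49. The ESC values lay within the range of the normoxic ESC libraries (0.07 and -0.07). On day 2 TSCs minus XEN cells gave 0.34, the XEN libraries being at -0.09 and -0.07. For the mitosis genes on day 7 ESCs minus TSCs gave 0.80 and TSCs minus XEN cells gave -0.94. Within TSCs day 7 minus day 2 gave -0.69 for the replication genes and -1.33 for the mitosis genes. Within XEN cells the replication genes gave 0.14 for the same days, from below the normoxic mean on day 2 to above it on day 7. The normoxic XEN libraries themselves lay at -0.07 and 0.07. Values between cell types come from tables normalised separately.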

How the results depend on the processing

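Every setting called between 23 and 34 of the 45 genes in TSCs on day 7 against day 2, except when day 2 replicate 1 (1), day 7 replicate 1 (11) or day 7 replicate 2 (0) was left out; over all left-out libraries the range was 0 to 31. In the other comparisons no gene was called under any setting counted, apart from 3 in TSCs on day 2 with replicate numbers crossed. These were *Aurkb*, *Bub1* and *Cenpa* (limma adjusted p 0.070, 0.063 and 0.052), and the alternative was chosen after seeing the data. In these comparisons crossed numbers were counted only where the correlation of deviations of equal numbers was below -0.1. Replicate numbers are not stated to pair the cultures, and the correlation of deviations of equal numbers ran from -0.46 to 0.27; with a replicate block 32 genes were called in TSCs on day 7 against day 2 and 0 elsewhere. With median-ratio scaling the TSC medians of replication and mitosis genes were -0.23 and -0.56 on day 7 against normoxia and -0.48 and -1.04 on day 7 against day 2; with limma-voom the replication medians were -0.32 and -0.63, and -0.14 in XEN cells on day 2. *Pcna* in TSCs on day 7 against day 2 turned to 0.0577 with median-ratio scaling and to 0.0309 without day 2 replicate 2. Without normoxia replicate 1 the XEN mitosis median of day 2 turned to -0.0444 and *Bub1b* to -0.0241 on day 2 and -0.000569 on day 7 (highest values without a library 0.459 and 0.482).

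When libraries were left out singly, TSC medians on day 2 ran from 0.19 to 0.32 (replication) and 0.43 to 0.74 (mitosis), on day 7 against normoxia from -0.53 to -0.34 and -0.83 to -0.65, and on day 7 against day 2 from -0.90 to -0.57 and -1.50 to -1.17. In ESCs they ran from -0.0826 to 0.06 and 0.0182 to 0.14 on day 2, and from -0.05 to 0.11 and 0.00 to 0.13 on day 7. In XEN cells they ran from -0.14 to -0.0022 and -0.0444 to 0.21 on day 2, and from -0.0687 to 0.0851 and 0.0478 to 0.33 on day 7. Where a library was left out, the lone sample of its group was assumed to vary like the others. The cause of these shifts was not tested. Precision rests on 2 libraries per group.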
